A study of Mus musculus with 12 samples.

Results

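The genes described here are 10 inflammatory CC chemokines, *Ccl2*, *Ccl3*, *Ccl4*, *Ccl5*, *Ccl6*, *Ccl7*, *Ccl8*, *Ccl9*, *Ccl12* and *Ccl24*, chosen by their symbols out of the 26699 gene symbols counted. All 10 passed the filter on low counts, among 11927 genes tested. The libraries hold RNA of macrophages sorted from C57BL/6 mouse synovium, the soft tissue lining the joint, after the whole tissue had spent 4 h ex vivo with 100 nM CGRP (calcitonin gene-related peptide, a peptide released by pain-sensing nerve fibres) or with vehicle. The sort took MHC class II-positive cells without CD11c, called IAIE after the library titles, and MHC class II-positive cells with CD11c, called CD11c. There were 4 groups (IAIE control, IAIE CGRP, CD11c control, CD11c CGRP) with 3 libraries each, giving 12 libraries. Control cells went through the same incubation and enzyme digestion as CGRP-treated cells, so no group shows macrophages straight from the joint. The whole explant was treated, so the sorted cells could also receive signals from neighbouring cells. The labels give neither age nor sex per library and do not say whether libraries of a group came from separate animals, so p-values measure the spread between these libraries, which may be technical.

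Chemokines of the CC family are small secreted proteins that steer leukocytes through G protein-coupled CC receptors. CCL2, CCL7 and CCL12 act on CCR2, the receptor that brings inflammatory monocytes from bone marrow and blood into tissue, while CCL8 of the mouse acts mainly on CCR8. CCL3, CCL4 and CCL5 draw monocytes, T cells and NK cells, CCL3 and CCL5 in part through CCR1. CCL6 and CCL9 are rodent ligands of CCR1 made by many resting myeloid cells, and CCL24 acts on CCR3 of eosinophils. In the inflamed joint macrophages and lining fibroblasts are among the sources of CCL2, and the entry of monocytes through CCR2 has long been studied in arthritis.

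Counts per library ran from 2127191 to 4465508 in control and from 4009081 to 5649698 in CGRP libraries, so that 3 counts, taken here as the floor of detection, stood for 0.534 to 1.34 CPM (counts scaled to library size and between libraries by TMM). *Itgax*, which encodes CD11c, was higher in the CD11c than in the IAIE subset by 5.33 ± 0.40 on the log2 scale (SE, edgeR adjusted p = 2.99e-08) in the control libraries, as the sort implies. All 8 macrophage markers examined (*Adgre1*, *Cd68*, *Csf1r*, *Mertk*, *C1qa*, *C1qb*, *C1qc*, *Mrc1*) were above the floor in every group, and their summed level in the IAIE subset was 5851 to 7771 CPM without and 4699 to 6197 CPM with CGRP, and in the CD11c subset 2429 to 2947 CPM without and 1865 to 2767 CPM with CGRP. A list of 7 dendritic cell markers summed to 108 to 173 CPM in IAIE control and 634 to 696 CPM in CD11c control libraries, with *Ccr7*, *Cd209a*, *Dpp4* and *Zbtb46* higher in the CD11c subset, so the cells labelled macrophages there also carried dendritic cell transcripts. Markers of monocytes (7.12 to 61.1 CPM in sum over the 12 libraries, *Ms4a3* never above 3 counts), neutrophils (0.0 to 178), mast cells (0.729 to 141) and endothelial cells (11.5 to 120) stayed below the macrophage sum in every library. They varied between libraries and were not below every member, as the neutrophil sum of 178 CPM in CD11c control replicate 3 exceeded *Ccl5* there (113 CPM). A list of 8 fibroblast markers summed to 201 to 1553 CPM.

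Together the 10 chemokine genes took 0.403% ± 0.0355 (SD, n = 3) of all counts in the IAIE subset without CGRP and 0.453% ± 0.0115 with it. In the CD11c subset these shares were 0.282% ± 0.00643 and 0.36% ± 0.0167. Every member was above the floor in every library. Among control libraries the subsets differed in the level of 8 of the 10 members, where 21.2% of all genes tested differed. CGRP raised 3 of the 10 in IAIE cells, where 5.32% of all genes tested rose, and 3 of the 10 in CD11c cells, where 6.29% rose. These were *Ccl3*, *Ccl5* and *Ccl9* in each subset, and the share of all genes that rose in both subsets was not computed.

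**Figure D1:**
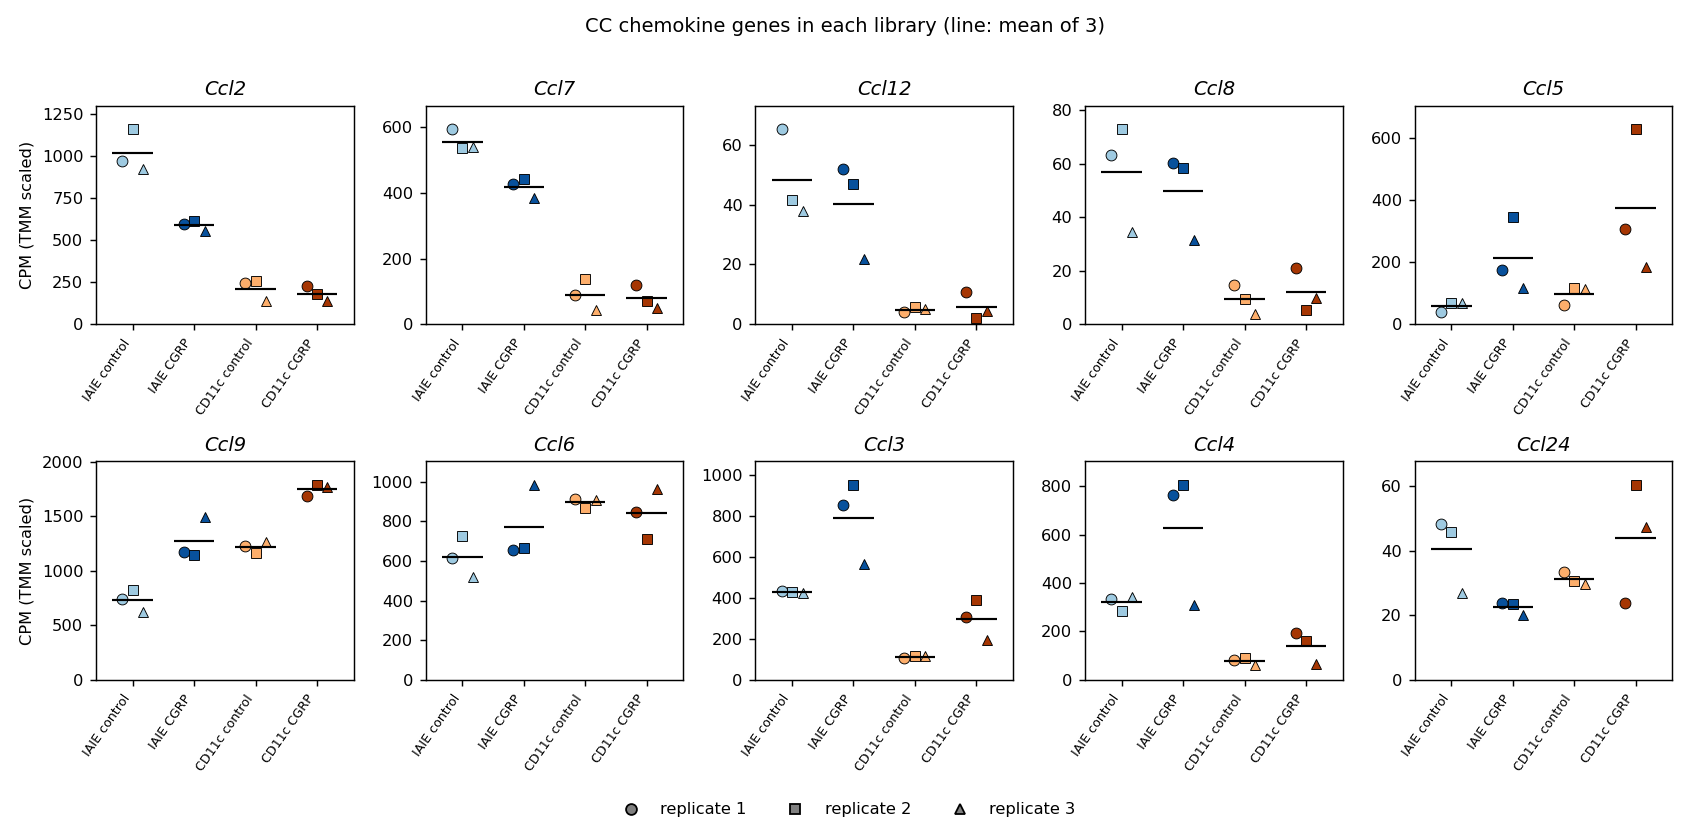
Level of each gene in CPM (vertical axes, linear from 0, a separate scale for each gene) in the 12 libraries of 4 groups. Symbols mark the replicate number and lines the mean of 3. The top row starts with the 4 genes of the *Ccl2* stretch, which sit near the bottom of their panels in the CD11c subset, whereas *Ccl9* and *Ccl6* do not, and the CGRP points of *Ccl5*, *Ccl9* and *Ccl3* lie above their own controls in both subsets.

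Of the 10 genes, 9 lie on chromosome 11 (GENCODE M21, mouse build GRCm38) in 2 groups that are 1.41 Mb apart. *Ccl2* (82035571 to 82037453), *Ccl7* (82045712 to 82047525), *Ccl12* (82101845 to 82103400) and *Ccl8* (82115185 to 82116799) follow each other on the plus strand over 81.2 kb. *Ccl5* (83525778 to 83530518), *Ccl9* (83572919 to 83578636), *Ccl6* (83587882 to 83593087) and *Ccl3* (83647844 to 83649355) lie on the minus strand, followed by *Ccl4* (83662584 to 83664683) on the plus strand, over 139.0 kb. *Ccl24* is on the minus strand of chromosome 5 (135569937 to 135573049). All 10 are protein-coding, and none has exons that overlap another GENCODE gene. At most 3.98% of the 31-base words of a member's transcripts (in *Ccl9*) also occur in another gene, so few reads could be shared with a copy.

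Among control libraries the CD11c subset held less of 6 members and more of 2. By edgeR with adjustment over all 11927 genes, 8 of 10 members passed an adjusted p of 0.05 (21.2% of all genes tested did), 6 of them lower in the CD11c subset (10.9% of all genes) and 2 higher (10.2% of all genes). The median log2 fold change, CD11c over IAIE, was -1.99 for the members and -0.02 for all genes tested. In bulk RNA, fewer cells of a type and less RNA per cell cannot be told apart.

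The monocyte-attracting genes of the *Ccl2* stretch showed the widest gaps. *Ccl2*, encoding the principal CCR2 ligand, stood at 968, 1156 and 922 CPM in the IAIE control libraries (replicates 1 to 3) and at 242, 256 and 138 CPM in the CD11c control libraries. The groups did not overlap, and the log2 fold change was -2.27 ± 0.20 (SE, edgeR adjusted p = 2.39e-07), 4.81-fold lower. *Ccl7*, its neighbour 8.26 kb downstream and also a CCR2 ligand, read 593, 536 and 539 CPM against 89.7, 139 and 42.7 CPM, lower by 6.14-fold (log2 -2.62 ± 0.31, edgeR adjusted p = 5.77e-06).

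*Ccl12*, another CCR2 ligand of the mouse, had 65.1, 41.6 and 38.0 CPM in IAIE control libraries and only 4.08, 5.61 and 4.93 CPM in CD11c control libraries, the latter from 10 to 24 counts each. It was 9.72-fold lower (log2 -3.28 ± 0.45, edgeR adjusted p = 3.17e-05). *Ccl8* had 63.3, 72.8 and 34.5 CPM against 14.7, 9.59 and 3.65 CPM, with the lowest CD11c library at 17 counts. Its fold change was -2.69 ± 0.46 on the log2 scale (edgeR adjusted p = 0.000304), and its groups did not overlap.

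The promoters of *Ccl12* and *Ccl8* are shown because these genes are neighbours with the same pattern and are the members with RefSeq windows in this stretch. Each run is the 250 bases before the RefSeq start, on the plus strand of GRCm38.p6, chr11:82101595-82101844 for *Ccl12* and chr11:82114935-82115184 for *Ccl8*, with matches to searched motifs in capitals.
Ccl12: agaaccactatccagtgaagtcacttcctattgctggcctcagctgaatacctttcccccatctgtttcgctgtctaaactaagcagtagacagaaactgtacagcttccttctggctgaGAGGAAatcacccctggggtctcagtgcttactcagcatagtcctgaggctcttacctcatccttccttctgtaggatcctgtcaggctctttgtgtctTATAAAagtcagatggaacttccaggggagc
Ccl8: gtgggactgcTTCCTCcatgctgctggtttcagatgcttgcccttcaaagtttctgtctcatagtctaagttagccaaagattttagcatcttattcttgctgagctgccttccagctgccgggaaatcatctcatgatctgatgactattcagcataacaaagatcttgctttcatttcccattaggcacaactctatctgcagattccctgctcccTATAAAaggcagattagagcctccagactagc
A TATA box (TATAAA) began 31 bases before the start in *Ccl12* and 32 before it in *Ccl8*. Searched on both strands, TATAAA occurs in 12.3% of 32526 promoter windows of the same length. Each window also held a match to the PU.1 core (GAGGAA, in 23.4% of windows), at 130 bases before the start in *Ccl12* and, on the other strand, at 240 in *Ccl8*. The aligned windows were identical at 55.6% of 270 columns, while the other 9 pairs among the 5 members with windows had 43.7% to 50.4%.

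The neighbours *Ccl3* and *Ccl4* followed the same direction in control cells. *Ccl3* was close to uniform within each group, at 432, 429 and 423 CPM in IAIE and 107, 114 and 117 CPM in CD11c control libraries, 3.78-fold lower in the latter (log2 -1.92 ± 0.21, edgeR adjusted p = 2.06e-06). *Ccl4* read 334, 286 and 340 CPM against 80.0, 88.8 and 61.4 CPM, 4.17-fold lower (log2 -2.06 ± 0.34, edgeR adjusted p = 0.000175). RefSeq draws *Ccl4* from 83648624, over *Ccl3* on the opposite strand, and whether the counting used strand is not given in the sources used here, so some reads of the pair could be shared.

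*Ccl6* and *Ccl9*, which lie between *Ccl5* and *Ccl3*, went the other way. *Ccl9* had 740, 827 and 619 CPM in IAIE control and 1227, 1162 and 1267 CPM in CD11c control libraries, 1.67-fold higher (log2 0.74 ± 0.13, edgeR adjusted p = 0.000318). *Ccl6* had 615, 724 and 518 CPM against 913, 868 and 909 CPM, 1.45-fold higher (log2 0.53 ± 0.16, edgeR adjusted p = 0.022). The groups did not overlap for either gene. The call for *Ccl6* was lost without IAIE control replicate 1 (log2 0.54, edgeR adjusted p = 0.0521), IAIE control replicate 3 (0.43, 0.0967) or CD11c control replicate 1 (0.53, 0.052).

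*Ccl5* and *Ccl24* did not pass in this comparison. *Ccl5* had 39.7, 67.4 and 69.8 CPM in IAIE and 62.0, 117 and 113 CPM in CD11c control libraries, with overlapping groups and a log2 difference of 0.74 (95% interval -0.10 to 1.59, edgeR adjusted p = 0.22). *Ccl24* had 48.4, 45.9 and 26.9 CPM against 33.5, 30.6 and 29.6 CPM, a log2 difference of -0.39 (95% interval -0.98 to 0.21).

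Other transcripts moved with the subset in the same libraries. All 8 macrophage markers were lower in the CD11c subset among controls, as were 5 of 6 lining macrophage markers (*Cx3cr1*, *Folr2*, *Lyve1*, *Sparc* and *Vsig4*, with *Timd4* higher), whose sum was 658 to 932 CPM in IAIE and 250 to 340 CPM in CD11c control libraries. Fibroblast markers, 8 in the list, summed to 308 to 1553 CPM in IAIE and 201 to 277 CPM in CD11c control libraries, with 5 of 6 tested lower. Of the mast cell markers *Kit* was higher in the CD11c subset. Their part in the chemokine differences was not tested.

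**Figure D2:**
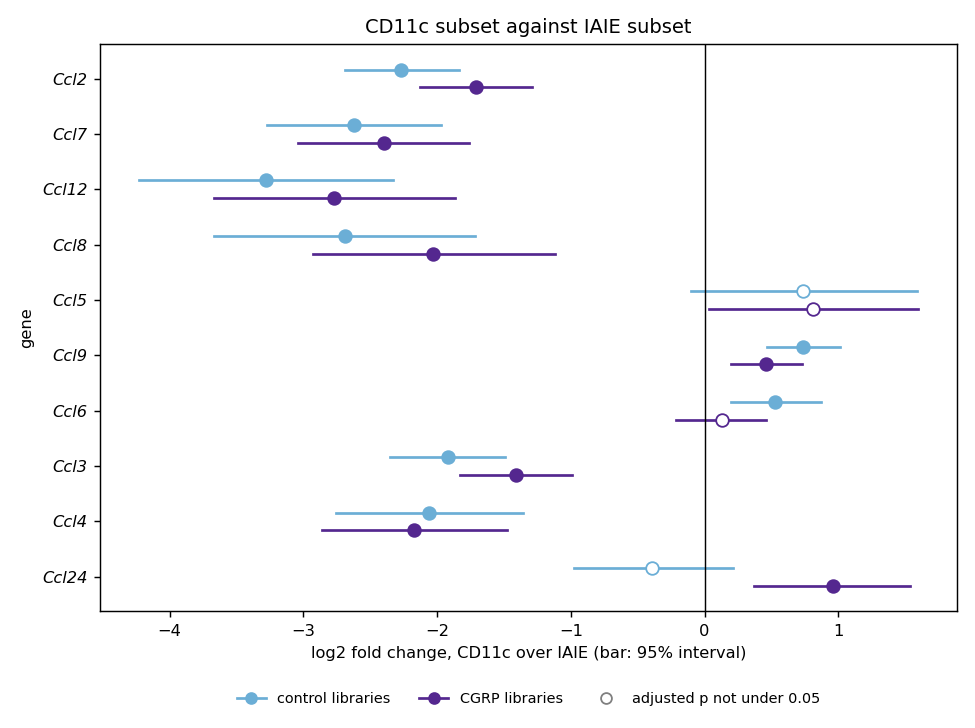
Log2 fold change of the CD11c over the IAIE subset (horizontal axis) for the 10 genes in chromosomal order, *Ccl24* last, among control (light) and CGRP (dark) libraries. Points are edgeR estimates, bars their 95% intervals, and filled points passed an adjusted p of 0.05. *Ccl2*, *Ccl7*, *Ccl12*, *Ccl8*, *Ccl3* and *Ccl4* lie left of 0 in both, and *Ccl9* right of 0 in both.

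After CGRP the subsets again differed in 8 of 10 members (16.9% of all genes tested), 6 lower in the CD11c subset (8.51% of all genes) and 2 higher (8.36% of all genes), with a median of -1.56 for the members and 0.0 for all genes. The 6 lower genes were again *Ccl2* (log2 -1.71 ± 0.20), *Ccl7* (-2.40 ± 0.31), *Ccl12* (-2.77 ± 0.43), *Ccl8* (-2.03 ± 0.43), *Ccl3* (-1.41 ± 0.20) and *Ccl4* (-2.17 ± 0.33), and each kept this call in all 12 fits that left out 1 library. Without CD11c CGRP replicate 1, which held the highest *Ccl12* and *Ccl8* of its group, the differences were -3.61 and -2.67. *Ccl9* was higher (0.46 ± 0.13, edgeR adjusted p = 0.0152). That call was lost without IAIE CGRP replicate 1 (0.41, edgeR adjusted p = 0.079), IAIE CGRP replicate 2 (0.39, 0.086) or CD11c CGRP replicate 3 (0.46, 0.05, just over the threshold).

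Markers moved with the subset after CGRP as well, with 7 of 8 macrophage markers (all but *Mertk*), *Folr2*, *Lyve1* and *Pdpn* lower in the CD11c subset and *Ccr7*, *Cd209a*, *Zbtb46*, *Timd4*, *Dcn*, *Kit* and *Tek* higher. The macrophage list summed to 4699 to 6197 CPM in IAIE and 1865 to 2767 CPM in CD11c CGRP libraries, and the dendritic cell list to 89.2 to 116 and 670 to 774 CPM. Their part in the chemokine differences was not tested.

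*Ccl24*, which did not pass among controls, was higher in the CD11c subset after CGRP. Its CPM were 23.8, 23.6 and 20.2 in IAIE CGRP and 23.8, 60.4 and 47.3 in CD11c CGRP libraries, so that CD11c replicate 1 was level with the highest IAIE library. The log2 difference was 0.96 ± 0.28 (edgeR adjusted p = 0.0221). It no longer passed without any single library among IAIE CGRP replicates 1, 2 and 3 (edgeR adjusted p = 0.0549, 0.0579 and 0.0806) or CD11c CGRP replicates 2 and 3 (0.151 and 0.074), nor by limma-voom (adjusted p = 0.0601).

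*Ccl5* read 174, 345 and 116 CPM in IAIE CGRP and 307, 627 and 184 CPM in CD11c CGRP libraries. The groups overlapped, but in each same-numbered pair the CD11c library was higher. Unpaired, the log2 difference was 0.81 (95% interval 0.03 to 1.60, edgeR adjusted p = 0.163). The same-numbered CGRP libraries deviated together across genes, and a fit with replicate number as block gave a difference that passed (0.80, edgeR adjusted p = 0.0456), as it did with treatment and number together as an explant block (0.78, 6.25e-05). These block fits also grouped the control libraries by number, where numbers were not taken to pair libraries. Without IAIE CGRP replicate 2 it was 1.36 (edgeR adjusted p = 0.025), and without CD11c CGRP replicate 3 it was 1.15 (0.0382). The 12 fits that left out 1 library ran from 0.22 to 1.36, and 2 of them passed (edgeR adjusted p up to 0.784). With every gene of at least 1 count in the fit the estimate stayed at 0.81, so its edgeR adjusted p of 3.99e-06 is not further evidence of a difference. *Ccl6* showed a difference of 0.13 (95% interval -0.21 to 0.46).

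CGRP raised *Ccl3*, *Ccl5* and *Ccl9* in both subsets and lowered *Ccl2* in the IAIE subset. In IAIE cells 4 of 10 members passed by edgeR (9.21% of all genes tested), 3 higher (5.32% of all genes) and 1 lower (3.89% of all genes). In CD11c cells 3 of 10 passed (10.9% of all genes), 3 higher (6.29% of all genes) and 0 lower (4.59% of all genes), and 0 members were lower there at an unadjusted p under 0.05 or by DESeq2. Median log2 changes were 0.06 for the members against -0.02 for all genes in IAIE cells, and 0.48 against 0.0 in CD11c cells. Other markers moved with CGRP too. In CD11c cells the fibroblast list went from 201 to 277 CPM in sum to 444 to 698 CPM, with *Col3a1*, *Dcn* and *Pdpn* higher. There the lining macrophage list went from 250 to 340 CPM in sum to 295 to 510 CPM, with *Sparc* and *Vsig4* higher, and the dendritic cell list from 634 to 696 CPM to 670 to 774 CPM, with *Ccr7* higher and *Cd209a*, *Dpp4* and *Flt3* lower. *Itgax* was lower in CD11c cells (log2 -1.03 ± 0.30, edgeR adjusted p = 0.0288), and *H2-Ab1*, which encodes an MHC class II chain, was lower in CD11c (-0.66 ± 0.11, 0.000574) and IAIE cells (-0.74 ± 0.11, 0.000316). In IAIE cells *Mrc1*, *Cx3cr1* and *Flt3* were lower, as were *Col1a1*, *Col1a2* and *Col3a1*, and *Pdpn* was higher. The part of these in the chemokine changes was not tested.

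*Ccl5*, encoding a CCR1 ligand that T and NK cells also make, had the largest rise of the 10 genes in both subsets. It went from 39.7, 67.4 and 69.8 CPM to 174, 345 and 116 CPM in IAIE libraries, 3.6-fold (log2 1.85 ± 0.40, edgeR adjusted p = 0.00538). In CD11c libraries it went from 62.0, 117 and 113 CPM to 307, 627 and 184 CPM, 3.79-fold (log2 1.92 ± 0.39, edgeR adjusted p = 0.0025). No CGRP library fell within its control range, but the CGRP libraries spread widely, and replicate 2 was the highest in both subsets. Without IAIE CGRP replicate 2 the IAIE change was 1.31 (edgeR adjusted p = 0.0509), and without CD11c CGRP replicate 2 the CD11c change was 1.32 (0.0197). T and NK cell markers, 7 of 11 listed being analysed here, summed to 24.8 CPM in IAIE control replicate 1, to at most 4.49 CPM in the other control libraries and to at most 2.91 CPM in any CGRP library, with *Cd3d*, *Gzma*, *Trac* and *Prf1* at or under 3 counts in every library.

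*Ccl3*, encoding an inflammatory ligand of CCR1, rose from 432, 429 and 423 CPM to 852, 951 and 564 CPM in IAIE cells, 1.84-fold (log2 0.88 ± 0.20, edgeR adjusted p = 0.00654). In CD11c cells it rose from 107, 114 and 117 CPM to 308, 387 and 195 CPM, 2.62-fold (log2 1.39 ± 0.20, edgeR adjusted p = 0.000116). Groups did not overlap in either subset, the controls were tight and the CGRP libraries were not. Even after the rise, every CD11c CGRP library stayed below the lowest IAIE control library.

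*Ccl4*, encoding an attractant of T cells and monocytes and the neighbour of *Ccl3* 13.2 kb away, gave 764, 806 and 307 CPM in IAIE CGRP libraries against 334, 286 and 340 CPM in controls. In CD11c cells it gave 193, 160 and 64.8 CPM against 80.0, 88.8 and 61.4 CPM. In both subsets CGRP replicates 1 and 2 lay above every control and replicate 3 lay within the control range. The log2 changes of 0.97 ± 0.32 (edgeR adjusted p = 0.0636) and 0.86 ± 0.33 (0.109) did not pass. In IAIE cells it passed with the replicate block (0.82, edgeR adjusted p = 0.0355), although same-numbered IAIE control and CGRP libraries did not deviate together (r = 0.0655, -0.034 and -0.0293 across genes). It also passed there without IAIE CGRP replicate 3 (1.30, edgeR adjusted p = 0.00565), CD11c CGRP replicate 1 (0.98, 0.0378) or CD11c CGRP replicate 3 (0.99, 0.0129). Those were 3 of the 12 fits that left out 1 library, which ran from 0.75 to 1.30 (edgeR adjusted p up to 0.255). In CD11c cells it passed without CD11c CGRP replicate 3 (1.18, edgeR adjusted p = 0.00847) or IAIE CGRP replicate 3 (0.86, 0.0406). Those were 2 of the 12 fits that left out 1 library, which ran from 0.51 to 1.18 (edgeR adjusted p up to 0.455). With every gene of at least 1 count in the fit the CD11c estimate stayed at 0.86, so its edgeR adjusted p of 1.01e-06 is not further evidence of a change. Neither DESeq2 nor limma-voom called *Ccl4* in either subset.

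*Ccl9*, encoding the rodent CCR1 ligand, had the smallest standard errors among the genes that rose. It went from 740, 827 and 619 CPM to 1171, 1143 and 1496 CPM in IAIE cells, 1.74-fold (log2 0.80 ± 0.13, edgeR adjusted p = 0.000422). The CD11c libraries went from 1227, 1162 and 1267 CPM to 1686, 1790 and 1773 CPM, 1.44-fold (log2 0.52 ± 0.13, edgeR adjusted p = 0.0102). No groups overlapped. The CD11c call was lost without CD11c control replicate 2 (0.45, edgeR adjusted p = 0.0756) or CD11c CGRP replicate 3 (0.48, 0.0511).

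*Ccl6*, a CCR1 ligand like *Ccl9* and encoded 9.24 kb from it, gave 657, 668 and 985 CPM in IAIE CGRP and 850, 712 and 963 CPM in CD11c CGRP libraries, overlapping the controls in both subsets. Its log2 changes were 0.31 (95% interval -0.02 to 0.65, edgeR adjusted p = 0.265) and -0.09 (95% interval -0.42 to 0.24, 0.811). The promoters of *Ccl9*, *Ccl6* and *Ccl3* are shown because *Ccl9* and *Ccl3* rose and *Ccl6* did not pass. Each is the 250 bases before the RefSeq start on the minus strand of GRCm38.p6, chr11:83578637-83578886 for *Ccl9*, chr11:83593088-83593337 for *Ccl6* and chr11:83649379-83649628 for *Ccl3*, with motif matches in capitals.
Ccl9: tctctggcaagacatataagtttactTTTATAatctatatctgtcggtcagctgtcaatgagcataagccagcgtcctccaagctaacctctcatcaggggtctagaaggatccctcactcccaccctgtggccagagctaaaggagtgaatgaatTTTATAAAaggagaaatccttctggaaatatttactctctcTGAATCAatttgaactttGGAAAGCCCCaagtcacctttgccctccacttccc
Ccl6: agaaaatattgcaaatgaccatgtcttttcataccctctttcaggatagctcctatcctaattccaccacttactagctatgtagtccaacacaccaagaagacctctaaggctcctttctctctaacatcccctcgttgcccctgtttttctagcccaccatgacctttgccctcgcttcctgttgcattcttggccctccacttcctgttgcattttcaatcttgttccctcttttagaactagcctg
Ccl3: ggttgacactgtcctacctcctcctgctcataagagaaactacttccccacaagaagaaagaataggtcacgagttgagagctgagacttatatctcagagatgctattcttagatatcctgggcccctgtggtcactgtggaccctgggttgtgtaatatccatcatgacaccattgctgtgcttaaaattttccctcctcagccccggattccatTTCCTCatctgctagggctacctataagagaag
The *Ccl9* window held an AP-1 match (TGANTCA, in 6.73% of the 32526 windows) starting 53 bases before the start, a match to the NF-kB consensus (7.28%) at 35, and 3 TATAAA matches at 224, 94 and 92, of which the last overlap each other on opposite strands. *Ccl3* held a PU.1 core (GAGGAA) on the other strand, 33 bases before the start. *Ccl6* held none of the 7 motifs searched on both strands. The others were C/EBP (TTGCNNAA, 9.57% of windows), the STAT motif TTCNNNGAA (7.04%) and TGACG (17.9%), a part of the cAMP response element. These others did not occur in any of the 5 windows. CGRP is known to signal through cAMP, but whether cAMP acted on these genes was not tested. The absence of TGACG cannot decide it, since most promoter windows lack TGACG and only 250 bases per gene were searched. *Ccl5* and *Ccl2*, among other members, had no window. The motif matches are letter matches, not sites shown to be bound.

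*Ccl2* fell with CGRP in the IAIE subset, from 968, 1156 and 922 CPM to 595, 611 and 554 CPM. The groups did not overlap, and the change was 1.73-fold downward (log2 -0.79 ± 0.19, edgeR adjusted p = 0.0125). It was -0.66 (edgeR adjusted p = 0.075) without IAIE control replicate 2 and -0.75 (0.0545) without IAIE CGRP replicate 3. IAIE control replicate 2 held both the highest *Ccl2* and the highest summed fibroblast markers, 1553 CPM against 308 and 453 CPM in the other two IAIE controls and 567 to 771 CPM in IAIE CGRP libraries. *Col1a1*, *Col1a2* and *Col3a1* fell and *Pdpn* rose in the same comparison, and the part of fibroblast RNA in the fall of *Ccl2* was not tested. In CD11c cells *Ccl2* read 226, 178 and 135 CPM with CGRP, overlapping its controls (log2 -0.23, 95% interval -0.65 to 0.18).

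The remaining genes of the *Ccl2* stretch did not pass. *Ccl7* read 428, 443 and 384 CPM in IAIE CGRP libraries, all below the controls, with a log2 change of -0.41 (95% interval -1.01 to 0.19, edgeR adjusted p = 0.45). In CD11c CGRP libraries it read 118, 70.0 and 49.8 CPM (log2 -0.19, 95% interval -0.82 to 0.44). *Ccl12* had 51.9, 46.9 and 21.9 CPM in IAIE CGRP and 10.9, 1.98 and 4.27 CPM in CD11c CGRP libraries, the last group resting on 8 to 57 counts. *Ccl8* had 60.1, 58.3 and 31.3 CPM and 20.9, 5.20 and 9.96 CPM. Intervals of the log2 change were wide, -1.07 to 0.52 and -0.77 to 1.25 for *Ccl12* and -1.05 to 0.64 and -0.53 to 1.46 for *Ccl8*, so that smaller changes in either direction were not detectable in these libraries.

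*Ccl24*, encoding the eosinophil attractant eotaxin-2, gave opposite estimates in the subsets. It was 23.8, 23.6 and 20.2 CPM in IAIE CGRP against 48.4, 45.9 and 26.9 CPM in control libraries, without overlap (log2 -0.86 ± 0.28, edgeR adjusted p = 0.0683). In CD11c cells it was 23.8, 60.4 and 47.3 CPM against 33.5, 30.6 and 29.6 CPM (log2 0.49 ± 0.28, edgeR adjusted p = 0.331). Neither passed. The IAIE change passed by DESeq2 (-0.86, adjusted p = 0.0348) and with the 6 compared libraries alone (-0.86, edgeR adjusted p = 0.0348). It passed with genes of at least 10 counts in every library (-0.87, edgeR adjusted p = 0.0376). With every gene of at least 1 count it passed at a smaller estimate (-0.78, edgeR adjusted p = 0.0314), which is not further evidence of a change. It also passed without IAIE control replicate 3 (-1.04, edgeR adjusted p = 0.031) or CD11c CGRP replicate 1 (-0.84, 0.025). Those were 2 of the 12 fits that left out 1 library, which ran from -1.04 to -0.70 (edgeR adjusted p up to 0.231). It did not pass by limma-voom (-0.77, adjusted p = 0.187) or with the replicate block (-0.84, edgeR adjusted p = 0.0685).

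**Figure D3:**
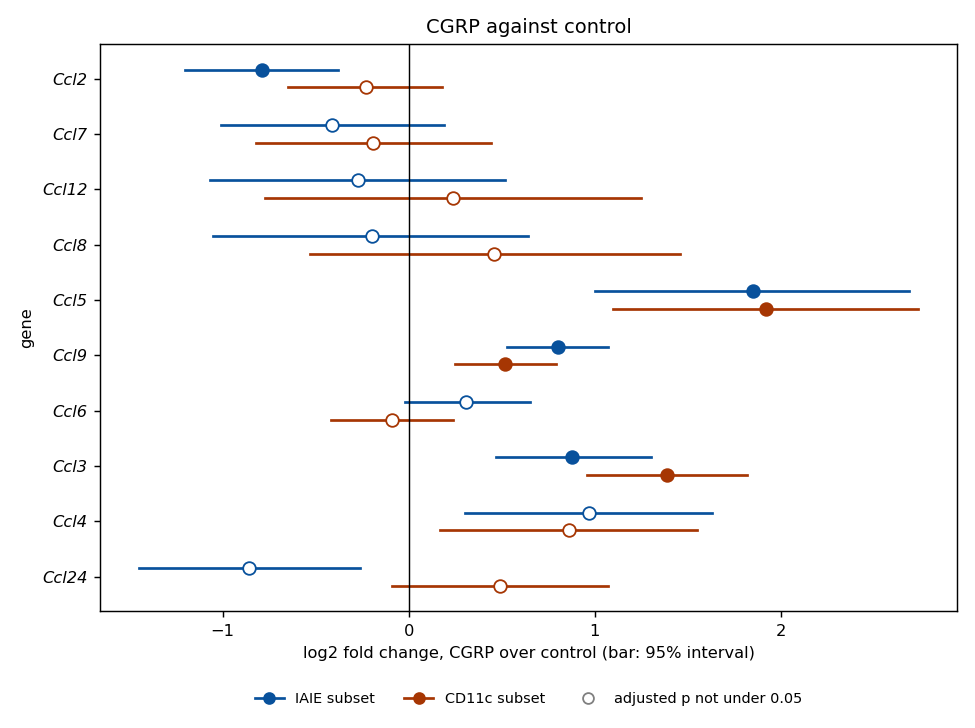
Log2 fold change of CGRP over control (horizontal axis) in the IAIE and the CD11c subset for the 10 genes in chromosomal order, *Ccl24* last. Points are edgeR estimates, bars 95% intervals, and filled points passed an adjusted p of 0.05. *Ccl5*, *Ccl9* and *Ccl3* are filled to the right of 0 in both subsets, *Ccl2* is filled to the left in the IAIE subset, and the 2 estimates of *Ccl24* lie on opposite sides.

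Whether CGRP acted differently in the subsets was tested directly, as the CD11c change minus the IAIE change. By edgeR 0 of 10 members passed (0.151% of all genes did), 1 (*Ccl24*) at an unadjusted p under 0.05, and 0 by DESeq2 or limma-voom. *Ccl24* had a difference of 1.34 ± 0.40 (95% interval 0.51 to 2.18, edgeR adjusted p = 0.237). *Ccl2* had 0.56 (95% interval -0.02 to 1.14, edgeR adjusted p = 0.582), so its fall in IAIE cells was not shown to differ from the change in CD11c cells. For the genes that rose the intervals were -0.08 to 1.10 for *Ccl3*, -1.08 to 1.23 for *Ccl5* and -0.66 to 0.10 for *Ccl9*, the widest leaving room for a difference of more than 2-fold in either direction.

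Among the CGRP libraries replicate 3 was the extreme one for some members, and other libraries were for others. CD11c CGRP replicate 1 had the highest *Ccl2*, *Ccl7*, *Ccl12* and *Ccl8* of its group, and replicate 2 the highest *Ccl5* in both subsets. IAIE CGRP replicate 3 had the lowest *Ccl3*, *Ccl4* and *Ccl5* of its group and the highest *Ccl6* and *Ccl9*. CD11c CGRP replicate 3 had the lowest *Ccl3*, *Ccl4* and *Ccl5* and the highest *Ccl6* of its group, with *Ccl9* in the middle. With both left out, a choice made after seeing the data, the log2 changes in IAIE and CD11c cells were 1.10 and 1.61 for *Ccl3*, 2.16 and 2.24 for *Ccl5*, 0.69 and 0.51 for *Ccl9* and 1.32 and 1.2 for *Ccl4*. All 8 of these then passed (largest edgeR adjusted p 0.0211), but leaving out the lowest libraries of *Ccl3*, *Ccl4* and *Ccl5* by itself raises their changes. *Ccl2* in IAIE cells was -0.73 (edgeR adjusted p = 0.0414). Between subsets after CGRP, *Ccl24* no longer passed (0.81, edgeR adjusted p = 0.193), and 7 members were called in place of 8. Over all genes 1341 were called there in place of 2012.

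Levels of different genes were compared per kilobase of exon, with all annotated transcripts of a gene merged, a length that exceeds the longest coding transcript for *Ccl2* (1138 against 813 bases), *Ccl5* (960 against 532), *Ccl6* (1795 against 1440) and *Ccl9* (3045 against 3006). In IAIE control cells *Ccl2* led at 892 ± 109 CPM per kb (SD, n = 3), followed by *Ccl7* (694 ± 40.5), *Ccl3* (558 ± 5.81), *Ccl4* (485 ± 45.0), *Ccl6* (345 ± 57.3) and *Ccl9* (239 ± 34.2), each above the next in every library, although per kilobase of coding transcript *Ccl4* and *Ccl6* overlapped. Below them *Ccl8* (111 ± 39.1), *Ccl12* (89.9 ± 27.4) and *Ccl5* (61.4 ± 17.4) overlapped their neighbours, and *Ccl24* was lowest at 31.2 ± 9.09 CPM per kb. In IAIE CGRP cells *Ccl3* (1030 ± 263) and *Ccl4* (948 ± 419) came first but overlapped, as did the following *Ccl7*, *Ccl2*, *Ccl6* and *Ccl9* with their neighbours.

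In CD11c control cells the order started with *Ccl6* (500 ± 13.9 CPM per kb) and *Ccl9* (400 ± 17.4), both above the next in every library, ahead of *Ccl2* at 186 ± 56.5. In CD11c CGRP cells *Ccl9* had the highest mean at 575 ± 18.3 CPM per kb, above *Ccl6* (469 ± 70.1) in every library, but *Ccl5* in replicate 2 (653) exceeded *Ccl9* there (588), while *Ccl6*, *Ccl5* (388 ± 238), *Ccl3* (387 ± 126) and *Ccl4* (211 ± 101) overlapped their neighbours. Per kilobase of coding transcript the means in these libraries were 700.0 ± 429 for *Ccl5*, 584 ± 87.4 for *Ccl6* and 582 ± 18.5 for *Ccl9*, all overlapping, so the first rank depended on the length used. *Ccl12* was the lowest member in both CD11c groups, at 9.08 ± 1.43 and 10.7 ± 8.66 CPM per kb, not separated from *Ccl8* (18.2 ± 10.8 and 23.5 ± 15.8).

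**Figure D4:**
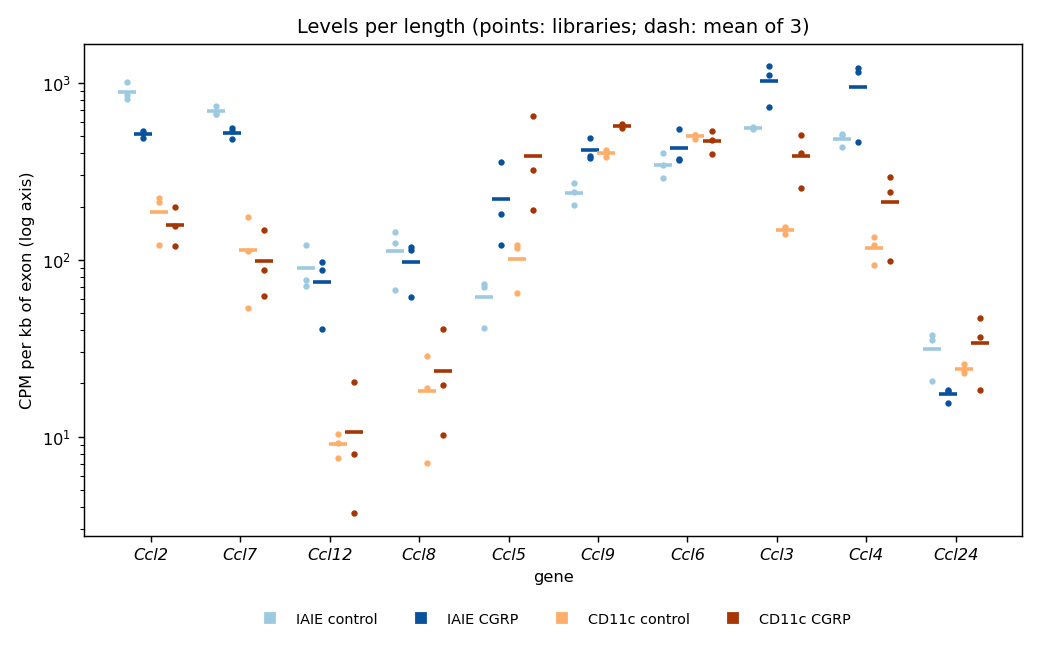
Level per kilobase of merged exon (vertical axis, log scale) for each gene in the 4 groups, with points for libraries and dashes for the mean of 3. *Ccl2* and *Ccl7* are the highest in IAIE control cells, *Ccl3* and *Ccl4* in IAIE CGRP cells, *Ccl6* and *Ccl9* by mean in both CD11c groups, where *Ccl12* is the lowest.

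Genes with the most similar pattern were found by Pearson's correlation of log2(CPM + 1) over the 12 libraries, among the 8460 tested genes whose mean reached 5 CPM. The libraries share their groups, so these values mostly follow the group means, and they are given as descriptions. Closest to *Ccl2* were *C4b* (r = 0.99, a complement gene with a near-identical copy in the genome, so its counts are uncertain), *Cd33* and *Arfgef2* (0.98 each), and *Ccl2* and *Enpep* (0.98 each) stood close to *Ccl7*. *Plau*, *Camk1* (0.99 each) and *Apoe* (0.98) were closest to *Ccl12*, and *Tlr2*, *Lyve1* and *Cbr2* (0.97 each) to *Ccl8*. For the genes from *Ccl3* to *Ccl5* these were *Tiparp*, *Oas2* and *Slc43a2* (0.98 each) for *Ccl3*, *Ifnb1* and *Atp6v1a* (0.96 each) for *Ccl4*, and *Gbp5* (0.96), *Sppl2a* and *Ik* (0.94 each) for *Ccl5*. *Surf4* (0.98), *Prelid1* and *Tbcb* (0.97 each) were closest to *Ccl9*, *Rpn2* (0.91), *Snrpa* and *Gnb2* (0.90 each) to *Ccl6*, and *Hycc1* (0.88), *Nup188* (0.84) and *Paxbp1* (0.80) to *Ccl24*.

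Of the 14 other CC ligand genes listed, only *Ccl1*, *Ccl11*, *Ccl17*, *Ccl22*, *Ccl25*, *Ccl27a* and *Ccl28* were assessed here, so nothing is said on the level of the rest. Of those assessed, 3 had enough counts to be tested, *Ccl17*, *Ccl22* and *Ccl25*. *Ccl22*, a CCR4 ligand, rose with CGRP in both subsets, in IAIE cells from 3.54 ± 4.31 to 41.9 ± 22.1 CPM (SD, n = 3, log2 3.81 ± 0.48, edgeR adjusted p = 3.32e-05). In CD11c cells it rose from 232 ± 40.6 to 682 ± 79.4 CPM (log2 1.55 ± 0.30, edgeR adjusted p = 0.00149). *Ccl11*, encoding eotaxin, had at most 8 counts in a library and *Ccl1* at most 2.

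Of 8 receptor genes examined, 4 were tested, *Ccr1*, *Ccr2*, *Ccr3* and the atypical *Ccrl2*. By edgeR 0 of 4 passed with CGRP in either subset, with 1 in each at an unadjusted p under 0.05, *Ccrl2* in IAIE cells and *Ccr2* in CD11c cells. DESeq2 and limma-voom each gave 0 in IAIE cells and 1 in CD11c cells. Among control libraries the CD11c subset had more *Ccr2* (log2 0.66 ± 0.19, edgeR adjusted p = 0.0156) and less *Ccr1* (-0.94 ± 0.18, 0.000677). After CGRP it had less *Ccrl2* by edgeR (-0.86 ± 0.27, edgeR adjusted p = 0.0326), where limma-voom called 1 receptor and DESeq2 0. Among controls, the subset with less *Ccl2* and *Ccl7* held more of their receptor transcript, *Ccr2*, at 127 ± 8.74 against 80.6 ± 6.63 CPM (SD, n = 3). After CGRP, with *Ccl2* and *Ccl7* still lower, the *Ccr2* difference did not pass (log2 0.35 ± 0.19, edgeR adjusted p = 0.23).

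Transcription factor genes that act on CC chemokine promoters, 18 examined and all tested, moved in both directions. In IAIE cells, where 9.21% of all genes passed, CGRP raised 2, *Irf7* (log2 2.33 ± 0.30) and *Stat2* (1.52 ± 0.28), and lowered 6, *Fos*, *Irf8*, *Nfkb1* (-0.96 ± 0.11), *Nfkb2*, *Rel* and *Stat3*. In CD11c cells, where 10.9% of all genes passed, it raised 3, *Irf7* (2.46 ± 0.30), *Stat2* (1.49 ± 0.28) and *Irf1* (0.68 ± 0.18), and lowered 1, *Fos*. *Irf7* and *Stat2* serve interferon signalling, and *Nfkb1*, *Nfkb2* and *Rel* encode NF-kB subunits. The median change over the list was -0.13 in IAIE and -0.09 in CD11c cells, against -0.02 and 0.0 for all genes. *Nfkb1* was the single listed gene whose CGRP change differed between subsets (0.88 ± 0.16, edgeR adjusted p = 0.018). Their part in the chemokine changes was not tested.

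Between subsets among controls, 5 of the 18 were higher in CD11c cells (*Crem*, *Irf5*, *Nfkb2*, *Rel* and *Relb*), where 10.2% of all genes were higher, and 4 lower (*Fos*, *Irf1*, *Irf8* and *Jun*), where 10.9% of all genes were lower. After CGRP 7 were higher (*Crem*, *Irf5*, *Nfkb1*, *Nfkb2*, *Rel*, *Relb* and *Stat3*, 8.36% of all genes) and 3 lower (*Fos*, *Irf8* and *Jun*, 8.51% of all genes).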

How the data were processed

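Per the labels, RNA of sorted synovial macrophages was made into stranded total RNA libraries. The authors trimmed reads with Trim Galore, aligned to mm10 using HISAT2, counted per gene using featureCounts, and deposited raw counts per gene symbol. Versions, annotation and strand setting are not given in the sources used here. The combined table repeats the 12 libraries, and 6 further columns matched no sample and were not used.

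From these counts, genes were kept by filterByExpr (minimum count 10, minimum total 15), scaled by TMM and fitted with edgeR 4.0.16 (R 4.3.3, quasi-likelihood, 4 group means, two-sided). Genes were called at a Benjamini-Hochberg adjusted p under 0.05 over 11927 genes, and adjusted p-values are from this fit unless another tool is named. CPM are given per library, and log2 fold changes with SE. The study used DESeq2, which was run as an alternative (1.42.0), beside limma-voom (limma 3.58.1), other scalings and filters, a replicate block, the compared libraries alone, 1 surrogate variable (sva 3.50.0), and each library left out. Tests were checked on simulated counts. Floors cover counting error only, since counts carry no molecular identifiers.

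Labels do not say what a replicate number marks. Over 5411 genes, deviations from group means correlated between same-numbered IAIE and CD11c CGRP libraries at 0.331, 0.117 and 0.191, so numbers were taken to pair these, and not elsewhere. That choice is not clear-cut, since same-numbered CD11c control and CGRP libraries gave 0.199, 0.114 and -0.00734. The remaining pairs of groups ran from -0.0421 to 0.0954. Replicate 1 libraries matched their own number best in every pair of groups. The main fit held no block, so its subset comparison after CGRP and its test of the subset difference in the CGRP change are unpaired. Fits with a replicate or explant block also grouped control libraries by number, and no fit paired the CGRP libraries alone. Promoters came from RefSeq (GRCm38.p6), with windows for 5 of 10 members. Members, lists and the rule for similar genes were chosen with earlier results of these data known. Some listed genes and similar genes are not reported here.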

Additional observations from a re-analysis of the deposited data

How the results depend on the processing

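Each library held 2127191 to 5649698 counts, which limits *Ccl12* and *Ccl8* most in CD11c cells, and with 3 libraries a group 1 library can decide a call. Of 600 log2 changes with 1 library left out, 553 kept their side of the threshold and direction, 16 lost a call, 9 gained one and 22 changed sign. Over the other planned settings these were 446, 1, 16 and 2 of 465. None of the sign changes over these settings, nor of those without both CGRP replicate 3 libraries, belonged to a called value (0 of 27), and the cause of each change was not tested.

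The number of members called with 1 library left out ran from 3 to 6 for CGRP in IAIE cells, 2 to 4 for CGRP in CD11c cells, 7 to 8 between subsets among controls and 6 to 8 after CGRP. Over all genes, of which 12650 to 12853 were then tested, calls ran from 722 to 1122 for CGRP in IAIE cells and 929 to 1377 in CD11c cells. Between subsets they ran from 2032 to 2532 among controls and 1456 to 2104 after CGRP. With every gene of at least 1 count in the fit, 1 member passed the test of the subset difference in the CGRP change, *Ccl24* (1.27, edgeR adjusted p = 0.0332), in place of 0. *Ccl5* then had -0.01 in that test, and -0.2 by limma-voom, in place of 0.07. Over all genes that test called 18 by edgeR as reported, but 97 by DESeq2, 2 by limma-voom, 171 with every gene of at least 1 count, 5 with at least 10 counts in every library, 36 with the replicate block, 52 with the explant replicate block and 6 to 29 with 1 library left out. CGRP in IAIE cells called 722 genes without IAIE CGRP replicate 2, against 1099.

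Leaving out 1 library, log2 changes that crossed 0 ran from -0.48 to 0.04 for *Ccl12* and -0.43 to 0.06 for *Ccl8* with CGRP in IAIE cells. In CD11c cells they ran from -0.63 to 0.26 for *Ccl7*, -0.64 to 0.61 for *Ccl12*, -0.22 to 0.89 for *Ccl8* and -0.23 to 0.02 for *Ccl6*. For the subset difference they ran from -0.24 to 0.65 for *Ccl7*, -0.39 to 0.87 for *Ccl12*, -0.03 to 1.08 for *Ccl8*, -0.53 to 0.61 for *Ccl5* and -0.47 to 0.19 for *Ccl4*. Without both CGRP replicate 3 libraries, added after seeing the data, the values were 0.05 for *Ccl12* and 0.07 for *Ccl8* in IAIE cells and 0.06 for *Ccl7* in CD11c cells, and the subsets after CGRP differed in 1341 genes against 2012.

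The replicate block called 5 members in IAIE cells (*Ccl4* added), 3 in CD11c cells, 0 in the subset difference, 8 between subsets among controls and 9 after CGRP (*Ccl5* added), and the explant replicate block called 0, 9 (*Ccl5* added) and 9 (*Ccl5* added) in the last 3 of these. They changed no other call on the members. Over all 11927 genes the replicate block called 1204 with CGRP in IAIE cells, 1423 in CD11c cells and 36 in the subset difference. Between subsets it called 2596 among controls and 2150 after CGRP. The explant replicate block called 52 in the subset difference, 2662 among controls and 2265 after CGRP. Without a block these 5 counts were 1099, 1298, 18, 2526 and 2012. Among controls *Ccl5* was 0.72 (edgeR adjusted p = 0.000373) with the explant replicate block, where the numbers were not taken to pair libraries, 0.74 (0.0402) in the 6 control libraries alone and 0.82 (1.28e-05) with every gene of at least 1 count. *Ccl4* with CGRP in IAIE cells also passed with every gene of at least 1 count (1.04), with genes of at least 10 counts in every library (0.95) and in the compared libraries alone (0.96). The fit with every gene of at least 1 count gave smaller adjusted p-values at similar estimates for *Ccl4*, *Ccl5* and *Ccl24*. Calls gained in that fit are therefore not further evidence of a change.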
